A study of Mus musculus with 30 samples.

Results

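The 7 mitochondrially encoded genes mt-Nd1, mt-Nd2, mt-Co1, mt-Nd4l, mt-Nd4, mt-Nd5 and mt-Cytb were followed across 30 libraries of RNA bound to tagged ribosomes from the nucleus accumbens of female mice. They are 7 of the 13 protein-coding genes and 7 of all 37 genes on the mitochondrial genome, in a count table of 55335 genes. They were found by matching Ensembl identifiers to GENCODE M21 symbols. The set was chosen by read sharing: the genes from mt-Co2 to mt-Nd3 were left out because their reads are shared with nuclear copies. That sharing is described here with no test, and the set was proposed with earlier results of these libraries in view. All 7 passed the filter on low counts.

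The mice carried the RiboTag allele, an HA tag on the ribosomal protein Rpl22 that appears only in cells with Cre. D1-Cre-RT mice tag medium spiny neurons of the D1 class. A2A-Cre-RT mice tag the other class, labelled A2A-MSN and titled D2, so the D2 name here rests on the adenosine A2A receptor driver and not on Drd2 itself. Control mice carry Control as their treatment label. The others were exposed to chronic witness defeat stress (CWDS), the repeated sight of another mouse being attacked, and then fell into the groups called Resilient or Susceptible by their social interaction scores. Punches were collected 24 h after that test, ribosomes were pulled down with an antibody to HA, and each library pooled 4 mice with similar scores. The 6 groups, D1 and D2 by Control, Resilient and Susceptible, had 5 libraries each, and every p-value measures the spread between such pools. Ages of the mice are not in the sources used here.

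Mitochondrial DNA is transcribed inside the organelle into long RNAs that carry many genes in a row. Transfer RNAs between the genes are cleaved out, and the freed mRNAs are translated by the mitochondrion's own ribosomes in the matrix. The RiboTag protein belongs to the cytosolic ribosome, which does not translate these mRNAs. The 7 genes encode membrane-embedded subunits of the respiratory chain: mt-Nd1, mt-Nd2, mt-Nd4l, mt-Nd4 and mt-Nd5 belong to complex I (NADH dehydrogenase), mt-Cytb to complex III and mt-Co1 to complex IV (cytochrome c oxidase). Neurons of the accumbens depend on this chain for the ATP that restores ion gradients after firing.

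In GRCm38 all 7 lie on the + strand of the mitochondrial chromosome. mt-Nd1 (ENSMUSG00000064341) spans chrM:2751-3707, mt-Nd2 (ENSMUSG00000064345) chrM:3914-4951 and mt-Co1 (ENSMUSG00000064351) chrM:5328-6872. Beyond the left-out stretch, mt-Nd4l (ENSMUSG00000065947) spans chrM:9877-10173 and mt-Nd4 (ENSMUSG00000064363) chrM:10167-11544, so that these neighbours overlap by 7 bases. mt-Nd5 (ENSMUSG00000064367) spans chrM:11742-13565 and mt-Cytb (ENSMUSG00000064370) chrM:14145-15288. Each is a single exon with no intron. The strand setting of the read counting is not stated in these sources, and the library kit does not mark strand, so reads from the opposite strand of these genes cannot be told apart from their own.

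The set was named as lying outside the genes with shared reads, and the annotated transcripts go against that name for 3 of its members. Every 50-base window of each gene was searched, on both strands, against 141730 GENCODE M21 transcripts. mt-Nd1 and mt-Cytb shared 0 windows with an annotated nuclear gene. The share was 7.61% in mt-Nd5 and 8.19% in mt-Nd2, but 51.1% in mt-Co1, 62.2% in mt-Nd4 and 98.8% in mt-Nd4l. In the left-out genes it was 100% in mt-Co2, 99.5% in mt-Atp6, 99.9% in mt-Co3 and 98.0% in mt-Nd3, but 0% in mt-Atp8. Nuclear copies outside the annotated transcripts were not searched, so a share of 0% does not mean that no copy exists. With 100-base windows the share was 0% in mt-Nd5, 3.19% in mt-Nd2, 30.8% in mt-Co1, 60.8% in mt-Nd4 and 98.5% in mt-Nd4l. The share in mt-Nd4l was thus close to that of the left-out genes other than mt-Atp8, and the 7 are called here by their names.

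The sequences below, from the GENCODE M21 transcripts, show where sharing begins, ends or is broken. Bases are counted from 1 at the 5′ end of each mitochondrial gene. The whole of mt-Nd4l is given first, because its bases 1 to 294, in capitals, are identical to Gm10222, an annotated copy at chr1:24612407-24612700 on the - strand.
mt-Nd4l, chrM:9877-10173: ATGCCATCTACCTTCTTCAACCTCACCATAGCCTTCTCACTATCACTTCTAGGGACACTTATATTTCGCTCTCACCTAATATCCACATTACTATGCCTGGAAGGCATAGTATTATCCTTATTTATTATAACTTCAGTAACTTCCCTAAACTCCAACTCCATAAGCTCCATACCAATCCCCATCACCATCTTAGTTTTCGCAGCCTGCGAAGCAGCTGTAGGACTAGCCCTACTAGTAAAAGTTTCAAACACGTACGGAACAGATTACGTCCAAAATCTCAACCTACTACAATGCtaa
mt-Nd4 is shown across the end of its identity with Gm28439 (chr1:24611535-24612410, - strand), which covers bases 1 to 876 of 1378. The capitals are the last shared bases, and the lower-case bases lie beyond the identity with Gm28439.
mt-Nd4, chrM:11013-11072: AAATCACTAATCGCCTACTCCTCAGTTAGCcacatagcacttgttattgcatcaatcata
mt-Co1 is shown beside Gm29216 (chr1:24615706-24616197, - strand) at the start of their alignment, bases 1063 to 1545 of mt-Co1. The pair differed at 1 base in 483, A1066T, given in capitals.
mt-Co1, chrM:6390-6449: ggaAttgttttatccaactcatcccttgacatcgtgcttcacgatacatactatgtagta
Gm29216, chr1:24616129-24616188: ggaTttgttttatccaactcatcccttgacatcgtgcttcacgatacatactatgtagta
mt-Nd5 is the contrast, a gene whose copy Gm4076 (chr13:85126550-85127514, - strand) differs often enough that few windows match: 45 mismatches in 953 aligned bases. The first of them is in capitals.
mt-Nd5, chrM:12447-12506: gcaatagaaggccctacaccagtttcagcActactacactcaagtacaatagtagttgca
Gm4076, chr13:85127455-85127514: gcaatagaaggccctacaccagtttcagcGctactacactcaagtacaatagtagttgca

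Few reads were counted to most of the copies. Gm10222 held 1 to 24 counts in a library and Gm28439 7 to 183, against 8646 to 93808 for mt-Nd4. Gm4076 held at most 11 counts and Gm11407, a second copy of part of mt-Nd5, at most 1. Gm29216, the copy of the last part of mt-Co1, ranged from 37 to 3757 counts. Reads that aligned to more than 1 place were kept apart in the deposited table and made up 2.96% to 11.8% of the reads per library. A read that lies within an identical stretch aligns to both places. The low counts of Gm10222 and Gm28439 thus do not show how many reads came from these copies.

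Counts assigned to genes ranged from 28996168 to 65882152 per library. The 7 genes took 0.210% to 1.08% of them. The 95% Wilson interval of such a share was at most 0.00567 percentage points wide, a width that covers counting error only, since reads are not independent molecules. D1 Susceptible 1 stood apart: one gene, Gm42418, which overlaps ribosomal RNA sequence, took 54.9% of its counts, and 53.3% of its reads were assigned to no gene. D2 Susceptible 1 and 2 had counts for 15822 and 16525 genes, the fewest of all. In the check of the labels, the D1 markers Drd1, Pdyn and Tac1 were called higher, and the D2 markers Drd2, Adora2a and Penk lower, in D1 than in D2 libraries in all 3 conditions. The check also held Rpl22, the tagged gene, which was called lower in D1 in Susceptible libraries only, as were 13.4% of all genes tested there. Levels below are CPM, counts per 1000000 of the library size as scaled by TMM, a method that makes the bulk of genes level between libraries. "Called" means an adjusted p under 0.05 in edgeR's quasi-likelihood test over 19368 genes.

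mt-Nd1 and mt-Nd2 encode complex I subunits and lie in the first part of the genome. mt-Nd1 was called lower in D1 than in D2 libraries in all 3 conditions, and mt-Nd2 in Resilient and Susceptible libraries. In D1 Control 1 to 5, mt-Nd1 was at 1303, 844, 1095, 658 and 1013 CPM, and in D2 Control 1 to 5 at 1294, 1621, 1389, 2005 and 1518 CPM. All D1 libraries but D1 Control 1 lay below every D2 library, so the Control groups overlapped by that library. mt-Nd1 was 1.59-fold lower in D1 than in D2 (log2 -0.67, SE 0.167, edgeR adjusted p = 0.00894, 5 against 5). It was the one member called among the Control libraries, where 4.8% of all genes tested were called lower in D1 and 8.3% in either direction.

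Among Resilient libraries mt-Nd1 was at 841, 664, 677, 969 and 1219 CPM in D1 and at 1766, 1416, 1700.1, 1560.0 and 1029 CPM in D2. D2 Resilient 5 lay inside the D1 range, and the other D2 libraries lay above it. The difference was 1.71-fold (log2 -0.77, SE 0.167, edgeR adjusted p = 0.00234). Among Susceptible libraries mt-Nd1 was at 982, 927, 791, 874 and 955 CPM in D1 and at 1489, 1164, 1367, 1683 and 1474 CPM in D2. These groups did not overlap, which held for 4.12% of all genes tested with D1 lower, and the difference was 1.58-fold (log2 -0.66, SE 0.167, edgeR adjusted p = 0.00481). mt-Nd1 kept its call in every alternative setting of all 3 class comparisons, with adjusted p values up to 0.0497, 0.0255 and 0.0190 in Control, Resilient and Susceptible libraries.

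mt-Nd2 followed mt-Nd1 from library to library, with a Spearman rho of 0.954 over the 30 libraries. These levels were scaled for library size, but the libraries also differ in class, which can make genes alike. The source of the likeness was not tested. Among Resilient libraries it was at 477, 389.9, 394, 554 and 734 CPM in D1 and at 1107, 841, 999, 946 and 616 CPM in D2. Again only D2 Resilient 5 fell within the D1 range. The difference was 1.77-fold (log2 -0.82, SE 0.198, edgeR adjusted p = 0.00720), and mt-Nd2 was among 5 of 7 members called lower in D1 in Resilient libraries, against 3.9% of all genes tested (6.65% in either direction). Among Susceptible libraries it was at 583, 499, 423, 499 and 647 CPM in D1 and at 709.7, 649, 815, 942 and 867 CPM in D2. The groups lay apart by the small step between 647 and 649 CPM, and the difference was called (log2 -0.59, SE 0.198, edgeR adjusted p = 0.0305). This call was lost in 6 of the 10 fits that left out 1 library, with edgeR adjusted p values up to 0.0942, and without the filter on low counts (0.0649). It was 1 of 3 members called lower in D1 in Susceptible libraries, where 13.4% of all genes tested were called lower and 23.9% in either direction. In Control libraries the log2 difference was -0.55 (SE 0.198) with an edgeR adjusted p of 0.0875, and 4 of 5 D1 libraries lay below every D2 library.

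**Figure D1:**
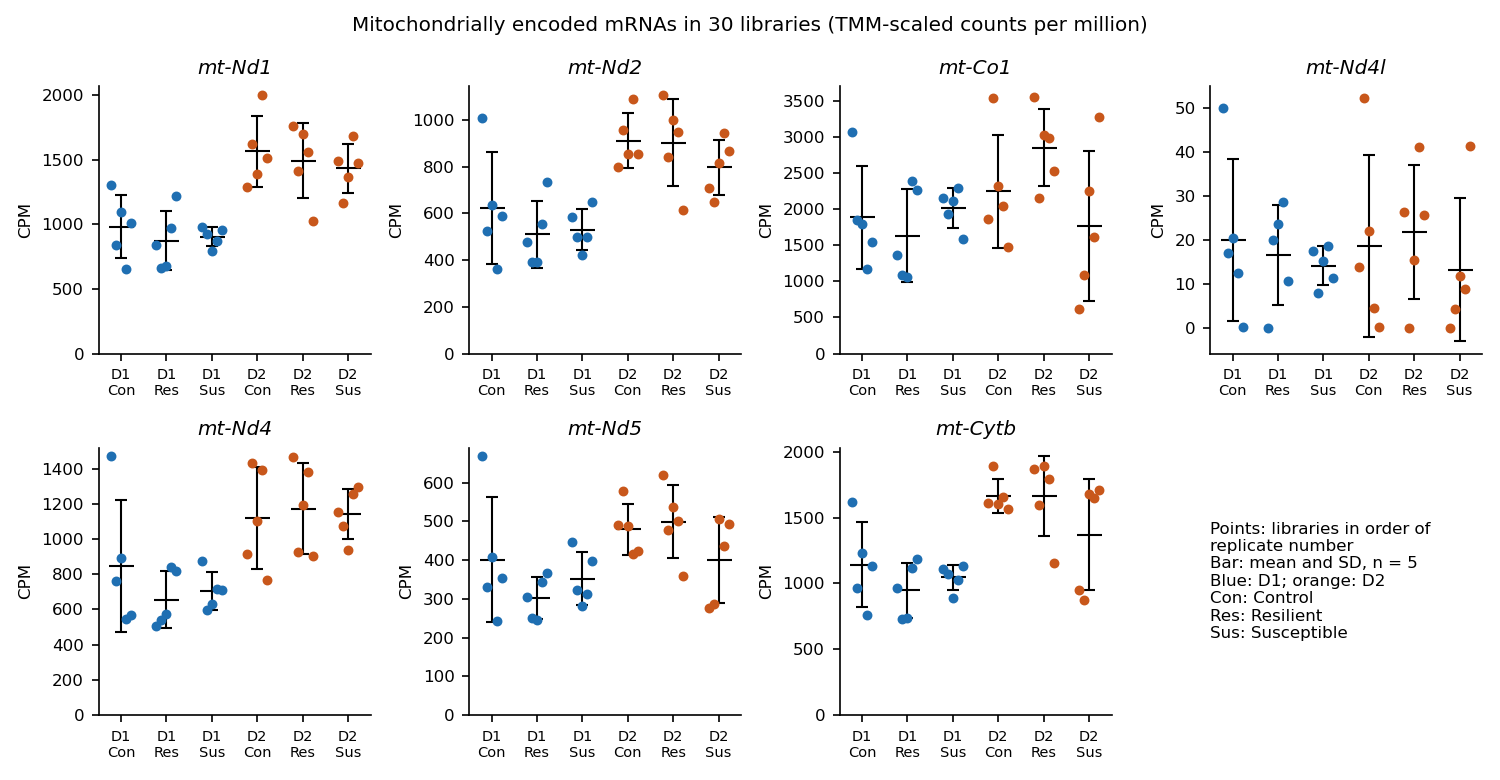
Level of each of the 7 genes in every library, in TMM-scaled CPM (y axes start at 0 except for mt-Nd4l, whose SD bars pass below 0), by group (x axis). Points are libraries in order of replicate number, bars the mean and SD of 5 libraries; mt-Nd1 lies between 658 and 1303 CPM in D1 and between 1029 and 2005 CPM in D2 libraries.

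mt-Nd4, a further complex I subunit of the proton-pumping membrane arm, was called lower in D1 in Resilient and Susceptible libraries. Among Resilient libraries it was at 507, 539, 576, 842 and 820.4 CPM in D1 and at 1466, 924, 1193, 1379.9 and 905 CPM in D2. It was the one member whose Resilient groups did not overlap, as was the case for 5.01% of all genes tested with D1 lower. The difference was 1.79-fold (log2 -0.84, SE 0.219, edgeR adjusted p = 0.0145). Among Susceptible libraries mt-Nd4 was at 877, 595, 630.4, 717 and 709.6 CPM in D1 and at 1156, 1073, 938, 1255 and 1296 CPM in D2. These groups lay apart as well (1.62-fold, log2 -0.70, SE 0.218, edgeR adjusted p = 0.0211). Leaving out 1 library ended the mt-Nd4 call in 5 of 10 fits in Resilient and 3 of 10 in Susceptible libraries. In Control libraries D1 Control 1, at 1471 CPM, was the highest of all 30, and the log2 difference was -0.40 (SE 0.218, edgeR adjusted p = 0.318).

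mt-Nd5, the largest complex I subunit made in the organelle, was called lower in D1 among Resilient libraries, and was not called in the other conditions. It was at 304, 251, 246, 342 and 368 CPM in D1 Resilient and at 621, 477, 536, 502 and 360.3 CPM in D2 Resilient. The highest D1 library passed the lowest D2 library by a small margin, and the difference was 1.65-fold (log2 -0.72, SE 0.207, edgeR adjusted p = 0.0285). This call was lost in 7 of the 10 fits that left out 1 library, with edgeR adjusted p values up to 0.108, and without the filter on low counts (0.0742). In Control libraries the log2 difference was -0.26 (SE 0.206, edgeR adjusted p = 0.582) and in Susceptible libraries -0.18 (SE 0.207, edgeR adjusted p = 0.553). With limma voom the Control difference was -0.65 and called (adjusted p = 0.0039). That fit called 5491 genes of any kind, against 1608 by edgeR. In D2 Susceptible 1 and 2 mt-Nd5 stood at 277 and 287 CPM, below the lowest of the other 13 D2 libraries.

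mt-Cytb, the core subunit of complex III and the last protein-coding gene on its strand, had a similar pattern over the libraries (rho 0.937 with mt-Nd5). In D1 Resilient 1 to 5 it was at 963, 728, 739.9, 1117 and 1185 CPM, and in D2 Resilient 1 to 5 at 1873, 1599, 1894, 1797 and 1156 CPM. The difference was 1.76-fold (log2 -0.81, SE 0.188, edgeR adjusted p = 0.00501). Control libraries were at 1622, 963, 1229, 759 and 1129.8 CPM in D1 and at 1609, 1892, 1606, 1655 and 1564 CPM in D2. Here the D2 libraries lay close together, D1 Control 1 lay among them, and the difference was not called (log2 -0.55, SE 0.188, edgeR adjusted p = 0.0710). Susceptible libraries were at 1108, 1073, 889, 1027 and 1129.9 CPM in D1 and at 949.7, 871, 1676, 1648 and 1713 CPM in D2. D2 Susceptible 1 lay inside the D1 range and D2 Susceptible 2 below it, while the other D2 Susceptible libraries lay above it, and the log2 difference of -0.39 (SE 0.188) had an edgeR adjusted p of 0.127. Without these 2 libraries it was -0.66 and called (edgeR adjusted p = 0.0154), while mt-Nd2 and mt-Nd4 were then not called. Over all genes that fit called 2123, against 4621 with all libraries.

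mt-Co1, the catalytic subunit of complex IV, was the most abundant of the 7 by counts and differed most between libraries of one group among the 6 genes other than mt-Nd4l. It was at 3081, 1858, 1795, 1174 and 1547 CPM in D1 Control and at 1873, 3548, 2328, 2043 and 1475 CPM in D2 Control. In Resilient libraries it was at 1365, 1086, 1065, 2396 and 2273 CPM in D1 and at 3566, 2163, 3032, 2985 and 2534 CPM in D2. In Susceptible libraries it was at 2159.7, 1933, 2119.5, 2294 and 1592 CPM in D1 and at 613, 1089, 2255, 1622 and 3279.5 CPM in D2. The groups overlapped in all 3 conditions and no class difference was called. The log2 difference was -0.25 (SE 0.329, edgeR adjusted p = 0.778) in Control, -0.80 (SE 0.331, edgeR adjusted p = 0.196) in Resilient and 0.19 (SE 0.329, edgeR adjusted p = 0.718) in Susceptible libraries. The sign in Susceptible libraries rested on D2 Susceptible 1 and 2: without both it was -0.22.

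mt-Nd4l, the short complex I subunit whose sequence is shared almost throughout, behaved unlike the other members. It had 0 to 15 counts in 5 libraries and 173 to 3164 counts in the other 25. The 5 were D1 Control 5 with 6 counts, D1 Resilient 1 with 4, D2 Control 5 with 15, D2 Resilient 2 with 5 and D2 Susceptible 1 with 0, a count that allows up to 3. In this order their levels were 0.146, 0.0750, 0.215, 0.0861 and 0 CPM, whereas the lowest of the other libraries was at 4.36 CPM. Every one of the 5 was also among the 5 lowest libraries for mt-Nd3, the neighbouring left-out gene, with 0.534 to 1.68 CPM against at least 57.3 CPM elsewhere. mt-Nd4, which overlaps mt-Nd4l and follows it, showed no such step in these libraries, at 569, 507, 770.2, 924 and 1156 CPM in the same order. The nuclear copy Gm10222 held 0.0215 to 0.218 CPM there, beside a median of 0.155 CPM over all libraries, values that rest on few counts. The 5 libraries belong to 5 of the 6 groups.

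No mt-Nd4l difference could be read at this spread. The log2 difference between D1 and D2 was 0.11 (SE 1.20, edgeR adjusted p = 0.982) in Control, -0.40 (SE 1.20, edgeR adjusted p = 0.971) in Resilient and 0.08 (SE 1.21, edgeR adjusted p = 0.969) in Susceptible libraries. Its 95% interval in Control libraries ran from -2.24 to 2.45, so that differences of several fold in either direction were not detectable.

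**Figure D2:**
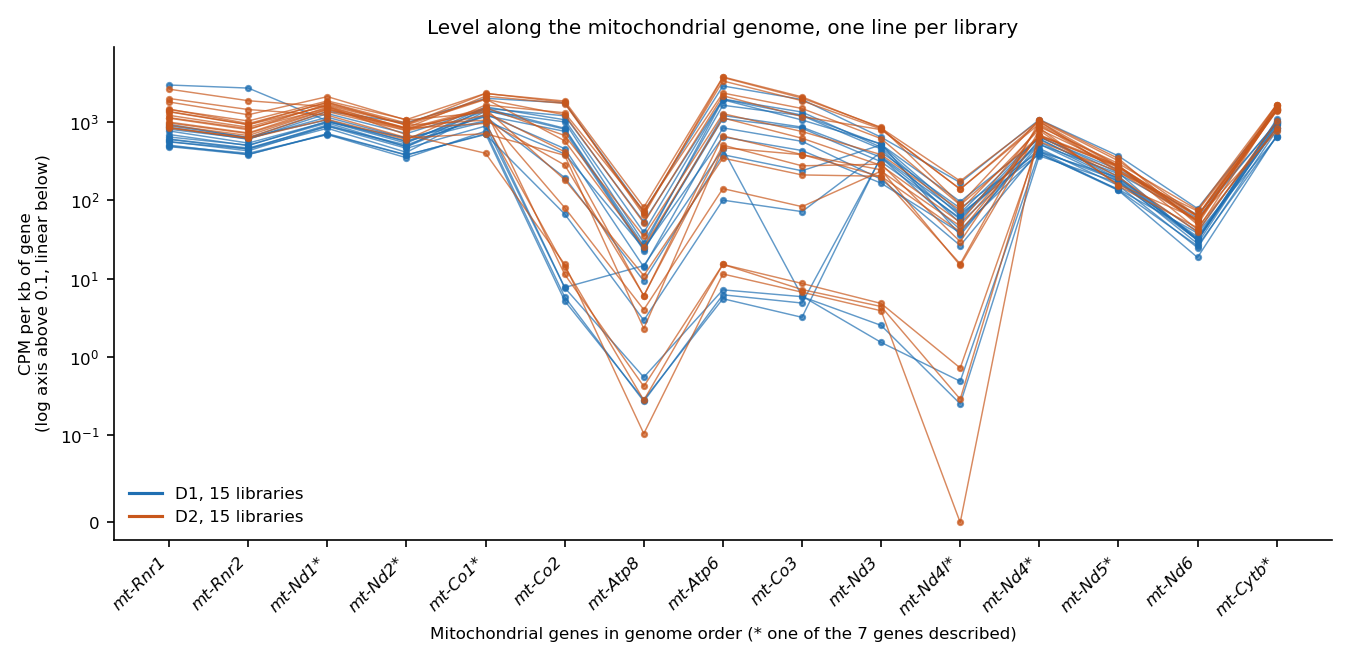
Level per kb of gene (y axis, log above 0.1 and linear below) for 15 mitochondrial genes in genome order (x axis), with one line per library, D1 blue and D2 orange and the 7 genes starred. The lines run together at mt-Nd1 and mt-Nd2 and from mt-Nd4 onward, and part between mt-Co2 and mt-Nd4l, where mt-Nd4l is at 0.724 CPM per kb or less in 5 libraries.

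Spread between libraries separated mt-Nd4l and, less so, mt-Co1 from the rest. The biological coefficient of variation that edgeR fitted within groups was 19.1% for mt-Nd1, 21.2% for mt-Cytb, 22.1% for mt-Nd2, 23.0% for mt-Nd5 and 24.2% for mt-Nd4, all under the 26.2% of the median gene. It was 35.8% for mt-Co1 and 133% for mt-Nd4l, higher than in 93.8% of genes. The left-out genes had 137% (mt-Co2), 136% (mt-Atp8), 140% (mt-Atp6), 145% (mt-Co3) and 119% (mt-Nd3), so that mt-Nd4l fell among them. Over the 30 libraries mt-Nd4l followed mt-Nd3 (Spearman rho 0.899) and not mt-Nd1 (0.0336), and mt-Co1 followed mt-Atp6 (0.866) more closely than mt-Nd1 (0.474). From the lowest to the highest library mt-Cytb varied 2.60-fold, mt-Nd5 2.76-fold, mt-Nd4 2.90-fold, mt-Nd1 3.05-fold, mt-Nd2 3.07-fold and mt-Co1 5.81-fold.

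In 2 libraries mt-Nd4l parted from the genes before it. In D1 Control 4 and D1 Resilient 2, mt-Co2 was at 3.99 and 3.56 CPM and mt-Co3 at 3.82 and 2.51 CPM. mt-Nd4l in the same libraries was at 12.5 and 19.9 CPM and mt-Nd3 at 121.9 and 126.2 CPM, within the usual range. Some nuclear copies were high in these libraries. Gm29216, the copy of the end of mt-Co1, reached 19.1 and 72.7 CPM there against a median of 5.27 CPM over all libraries. Gm28661, the copy of mt-Co2, was at 16.5 and 63.0 CPM against a median of 4.03 CPM. Gm28438, the copy of mt-Nd3, was not high, at 5.65 and 3.85 CPM against a median of 5.14 CPM. mt-Co1 was at 1174 and 1086 CPM in them, the lower part of its D1 range.

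Compared per length, the median level over all 30 libraries was 1347 CPM per kb for mt-Co1, 1245 for mt-Nd1 and 1023 for mt-Cytb, followed by 654 for mt-Nd2 and 652 for mt-Nd4. mt-Nd5 had 221 CPM per kb and mt-Nd4l 51.5. These values use whole gene lengths, while reads that aligned to more than 1 place were not counted to genes. With 98.8%, 62.2% and 51.1% of their 50-base windows shared, mt-Nd4l, mt-Nd4 and mt-Co1 cannot be ranked against the others by transcript level. Of all counts on the 7 genes, mt-Co1 took 36.3% ± 4.70 (SD, n = 5) in D1 Susceptible, 33.3% ± 3.33 in D2 Resilient and 24.0% ± 9.16 in D2 Susceptible libraries. In the last group its share was as low as 11.8%, while mt-Nd1 took up to 28.7% there.

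Ordered by group mean, the level of mt-Nd1 ran from D1 Resilient (874 ± 230.2 CPM, SD, n = 5) through D1 Susceptible (906 ± 75.4), D1 Control (983 ± 245), D2 Susceptible (1435 ± 189.7) and D2 Resilient (1494 ± 293) to D2 Control (1565 ± 275). mt-Cytb ran from D1 Resilient (947 ± 210.4) through D1 Susceptible (1045 ± 95.8), D1 Control (1140.5 ± 323), D2 Susceptible (1372 ± 422) and D2 Resilient (1664 ± 307) to D2 Control (1665 ± 131). For mt-Co1 D2 Susceptible (1772 ± 1041) fell between D1 Resilient (1637 ± 649) and D1 Control (1891 ± 717), and D2 Resilient was highest (2856 ± 533). In all 35 pairs of neighbours in these orders, over the 7 genes, the ranges of the libraries overlapped.

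**Figure D3:**
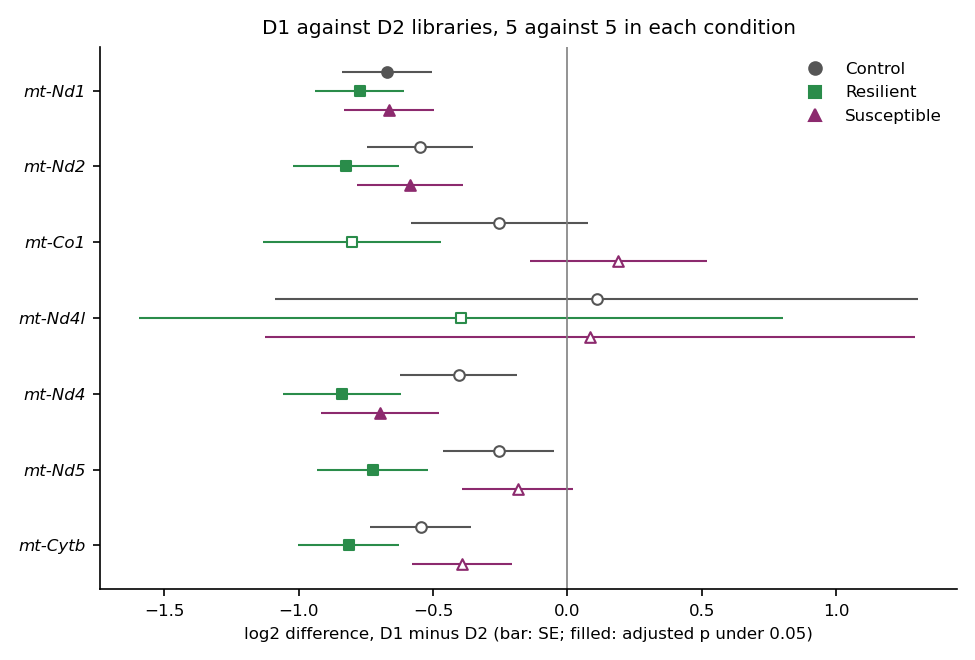
Difference between D1 and D2 libraries (x axis, log2, D1 minus D2) for each of the 7 genes (y axis) in each condition. Points are edgeR estimates with SE bars, 5 libraries against 5, filled where the adjusted p over all genes was under 0.05: 1 gene in Control, 5 in Resilient and 3 in Susceptible libraries.

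Over the 7 genes the median log2 difference was -0.40 in Control, -0.80 in Resilient and -0.39 in Susceptible libraries, beside medians of 0.00, 0.00 and 0.02 over all genes tested. Whether the class difference itself changed with stress was tested as the D1 change minus the D2 change. No member was called in any of these 3 tests (background 0.0% of genes in each), and the largest of these values was for mt-Co1 between Susceptible and Resilient (log2 0.99, SE 0.466, unadjusted p = 0.0430, edgeR adjusted p = 0.385). The differing counts of 1, 5 and 3 called members are therefore not shown to differ between conditions. They also moved with single libraries. Without D1 Control 1 there were 4 called in Control libraries, mt-Nd1, mt-Nd2, mt-Nd4 and mt-Cytb. Over all genes that fit called 1794, against 1608 with all libraries. In Resilient libraries there were 3 without D1 Resilient 1, 2 or 3 or without D2 Resilient 1 or 4, and in Susceptible libraries there was 1, mt-Nd1, without D1 Susceptible 2 or 3 or without D2 Susceptible 1. These fits called 960 to 1077 genes in Resilient and 3508 to 3998 in Susceptible libraries, against 1288 and 4621 with all libraries.

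Markers of other cells moved with the class difference. Astrocyte markers (Aqp4, Gfap, Aldh1l1, Slc1a3, Gja1 and Aldoc, all 6 detected) summed to 60.8 to 260.1 CPM in D1 Control, 56.9 to 68.4 in D1 Resilient and 67.4 to 151 in D1 Susceptible libraries. In D2 they summed to 188 to 283 CPM in Control, 108 to 326 in Resilient and 211 to 256 in Susceptible libraries. Of the 6, 4 were called lower in D1 in Control, 6 in Resilient and 5 in Susceptible libraries, against 4.8%, 3.9% and 13.4% of all genes tested. D1 Control 1, the highest of its group for each of the 7 genes, had the highest astrocyte sum of any D1 library, 260.1 CPM. D2 Resilient 5, the lowest D2 Resilient library for mt-Nd1, mt-Nd2, mt-Nd4, mt-Nd5 and mt-Cytb, had the lowest astrocyte sum of any D2 library, 108 CPM. Not every library paired in this way. D1 Resilient 5 had an astrocyte sum of 68.4 CPM, but its mt-Nd1 level of 1219 CPM lay above D2 Resilient 5 and D2 Susceptible 2.

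**Figure D4:**
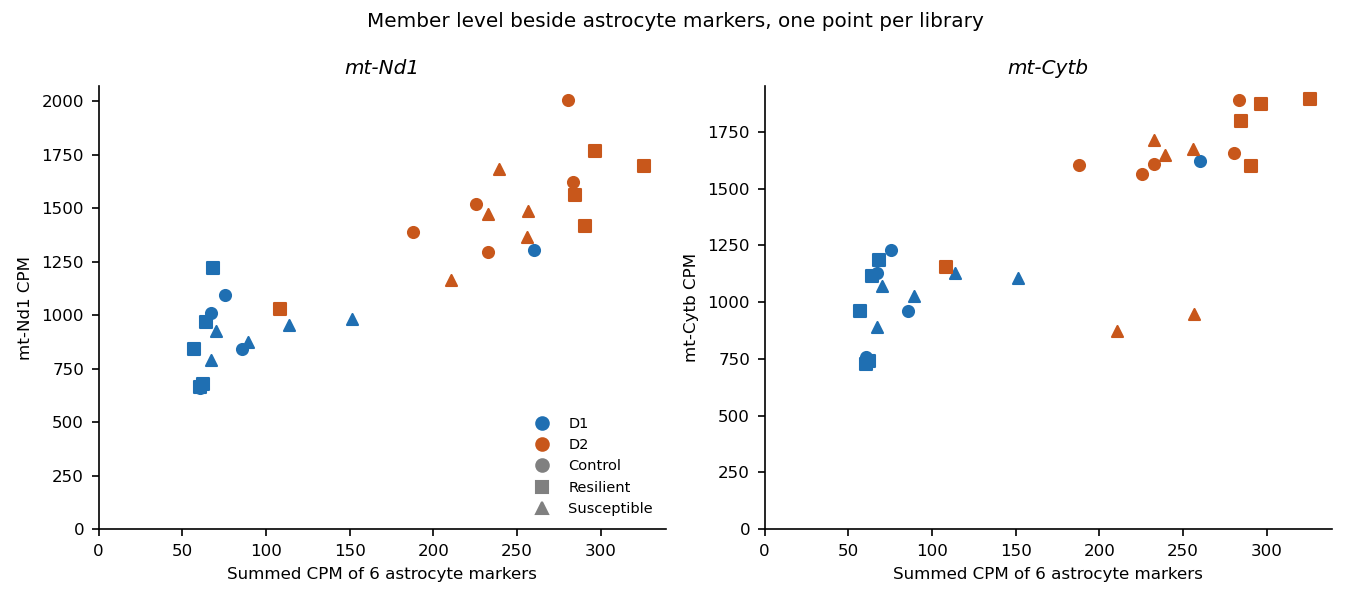
Level of mt-Nd1 and of mt-Cytb (y axes, CPM), the members that share no sequence window with an annotated nuclear gene, beside the summed CPM of 6 astrocyte markers (x axes), one point per library. D1 libraries (blue) lie at low sums except D1 Control 1 at 260.1 CPM, and D2 libraries (orange) at high sums except D2 Resilient 5 at 108 CPM; D2 Susceptible 1 and 2 are low for mt-Cytb at high sums.

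Endothelial markers (Cldn5, Pecam1, Flt1, Ly6c1, Cdh5 and Tek) summed to 12.2 to 35.4 CPM in D1 and 57.2 to 304 CPM in D2 libraries, and all 6 were called lower in D1 in each condition. Oligodendrocyte markers summed to 383 to 998 CPM in D1 and 433 to 1894 CPM in D2 libraries, with 0, 2 and 4 of 6 called lower in D1 in Control, Resilient and Susceptible libraries. Microglia markers summed to 9.37 to 34.9 CPM in D1 and 12.8 to 41.5 CPM in D2 libraries, with 0, 2 and 0 called. Interneuron markers went the other way, 294 to 478 CPM in D1 and 67.6 to 281 CPM in D2 libraries, with 4, 4 and 5 of 6 called higher in D1. Over all genes tested, 4.8%, 3.9% and 13.4% were called lower in D1 in Control, Resilient and Susceptible libraries. In either direction it was 8.3%, 6.65% and 23.9%. No marker of these lists was at 0 in all libraries of a group. D1 Control 1 was also the highest D1 library for the oligodendrocyte and microglia sums. D2 Resilient 5 was also the lowest D2 library for the oligodendrocyte and endothelial sums. The part of these cells in the mitochondrial difference was not tested. In such pulldown libraries fewer cells of a type, less RNA per cell and less RNA carried along in the pulldown cannot be told apart.

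The genes whose pattern over the 30 libraries was most like the mean log2 level of the 7 members, among 15147 nuclear genes, were Cyp4f17 (Spearman rho 0.763), Mmp25 (0.750), Rnpepl1 (0.729), Ddx58 (0.725) and C1qb (0.720). The least alike were Napb (-0.79), Khdrbs3 (-0.78) and Gpd2 (-0.77), the last an enzyme of the glycerol phosphate shuttle at the inner mitochondrial membrane. On the log scale this mean is moved most by mt-Nd4l and its near-empty libraries. With the mean of mt-Nd1, mt-Nd2, mt-Nd5 and mt-Cytb, a choice made after the data were seen, the most alike genes were Aldoc (0.877), Gstm1 (0.873), Apoe (0.871), Slc1a3 (0.871) and Mlc1 (0.870). Aldoc, the glycolytic enzyme aldolase C, and Slc1a3, a glutamate transporter, are on the astrocyte list, and Apoe and Mlc1 are also known from astrocytes. The least alike were then Map4k3 (-0.82), Inpp4a (-0.81) and Dennd6a (-0.79). These values describe 30 libraries that differ in class and depth, which can make genes alike, and carry no test.

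Stress was not followed by a called change in any of the 7 genes, within D1 or within D2 libraries. The share of all genes called was 0.0% for Susceptible against Control, Resilient against Control and Susceptible against Resilient in D1 libraries. In D2 libraries it was 0.00516%, 0.0% and 0.0516% for the same comparisons, so edgeR called few genes of any kind. DESeq2 called 0 of the 7 in each of the 6 as well, and at an unadjusted p under 0.05 there was 1 member in 1 comparison, mt-Co1 in D2 Susceptible against Resilient.

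In D1 libraries the stress changes of members with a small spread were small. mt-Nd1 was at 906 ± 75.4 CPM in Susceptible and 983 ± 245 CPM in Control libraries (log2 -0.12, 95% interval -0.44 to 0.21). The lowest and highest members in this comparison were mt-Nd4l (log2 -0.51, SE 1.21) and mt-Co1 (0.09, SE 0.329), both with an edgeR adjusted p of 1. Between Resilient and Control all 7 lay below 0, from mt-Nd5 (log2 -0.41, SE 0.207, unadjusted p = 0.0574, edgeR adjusted p = 1) to mt-Nd1 (-0.17, SE 0.166, edgeR adjusted p = 1). D1 Control 1, with 669 CPM of mt-Nd5 against 243 to 409 CPM in the other Control libraries, weighed on this: without it the log2 change of mt-Nd5 was -0.14. Between Susceptible and Resilient the values ran from mt-Nd4l (log2 -0.24, SE 1.21) to mt-Co1 (0.30, SE 0.329), with an edgeR adjusted p of 1 for both.

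In D2 libraries mt-Co1 had the largest stress difference of the 6 genes other than mt-Nd4l. The values given above run from 613 to 3279.5 CPM in Susceptible and from 2163 to 3566 CPM in Resilient libraries, so the Susceptible libraries spread over the whole range. Its log2 change was -0.69 (SE 0.330, 95% interval -1.34 to -0.04, unadjusted p = 0.0470, edgeR adjusted p = 0.255). This value turned on single libraries. Without D2 Susceptible 5, the highest, it was -1.04 and just called (edgeR adjusted p = 0.0485). That fit called 1607 genes of any kind, against 10 of 19368 in the fit reported. Without D2 Susceptible 1 the log2 change of mt-Co1 was -0.47, and without D2 Susceptible 1 and 2 it was -0.26.

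The remaining D2 values were smaller or poorly measured. mt-Nd1 differed by log2 -0.12 between Susceptible and Control (95% interval -0.45 to 0.20) and by -0.07 between Resilient and Control (SE 0.166, edgeR adjusted p = 1). The lowest and highest members were mt-Nd4l (-0.48, SE 1.20) and mt-Nd4 (0.03, SE 0.217) between Susceptible and Control. Between Resilient and Control mt-Nd1 was the lowest and mt-Co1 the highest (0.34, SE 0.329). Between Susceptible and Resilient they were mt-Nd4l (-0.71, SE 1.20) and mt-Nd4 (-0.04, SE 0.217). For mt-Nd1 the 95% intervals of the 3 D2 comparisons reached no further than -0.45 and 0.27, whereas those of mt-Nd4l passed 1.6 in both directions.

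In the tests of D1 change minus D2 change, the lowest and highest members were mt-Nd4 (-0.29, SE 0.307) and mt-Co1 (0.44, SE 0.465) for Susceptible against Control. For Resilient against Control they were mt-Co1 (-0.55, SE 0.465) and mt-Nd1 (-0.10, SE 0.235). For Susceptible against Resilient mt-Nd1 was the lowest (0.11, SE 0.235) and mt-Co1, given above, the highest. D1 Susceptible 1, the library with the altered composition, was after scaling the highest of its group for mt-Nd1, mt-Nd4 and mt-Nd5 (982, 877 and 447 CPM) and inside its group's range for the other genes.

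**Figure D5:**
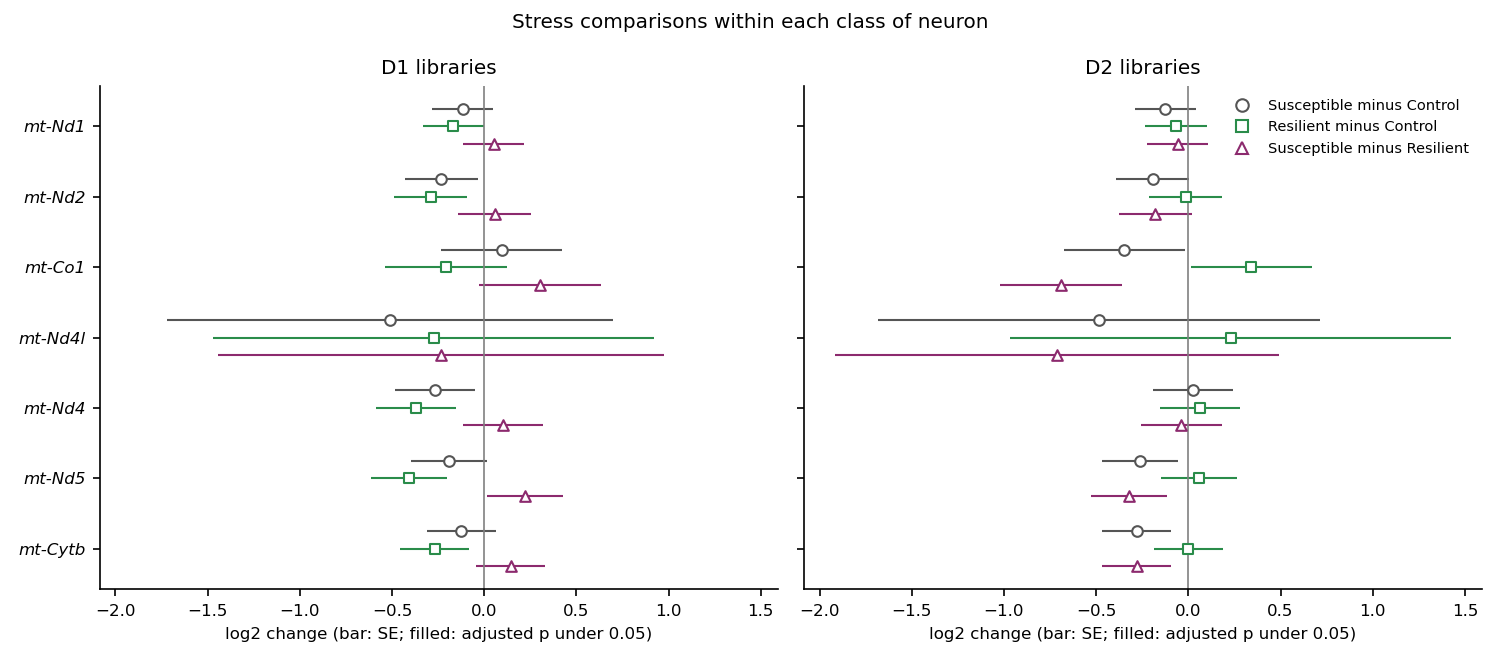
Stress changes of the 7 genes (x axes, log2; y axis, gene) within D1 and within D2 libraries, for Susceptible minus Control, Resilient minus Control and Susceptible minus Resilient. Points are edgeR estimates with SE bars from 5 libraries a group, and open symbols mark that none was called; mt-Nd4l has SEs of about 1.20 in all of them.

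The other mitochondrial genes, mt-Atp8, mt-Atp6, mt-Co2, mt-Co3, mt-Nd3, mt-Nd6, mt-Rnr1 and mt-Rnr2, gave 0 of 8 called in each of the 12 comparisons by edgeR. In Resilient libraries all 8 lay lower in D1, with a median log2 difference of -1.05, beside -0.80 for the 7 genes. In Control libraries 7 lay lower (median -0.20) and in Susceptible libraries 3 (median 0.22). At the wide spread of mt-Co2, mt-Atp8, mt-Atp6, mt-Co3 and mt-Nd3 given above, no call does not mean equal levels in the classes. mt-Nd6, the complex I subunit encoded on the opposite strand, had a coefficient of variation of 30.1% and a rho of 0.71 with mt-Nd1.

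Nuclear genes for the upkeep and expression of mitochondrial DNA were called in small numbers between the classes. Of 32 listed, 30 were tested, and 0 were called higher and 3 lower in D1 in Control, 0 and 1 in Resilient, and 3 and 4 in Susceptible libraries. Over all genes tested, 8.3%, 6.65% and 23.9% were called in either direction in these conditions, so the list lay near or below that background. Their median log2 difference was 0.09, 0.01 and -0.09, beside all-gene medians of 0.00, 0.00 and 0.02. Polg, the catalytic subunit of the mitochondrial DNA polymerase, was lower in D1 in all 3 (log2 -0.26, -0.28 and -0.25, edgeR adjusted p = 0.0227, 0.0118 and 0.0136). Cox14, an assembly factor of complex IV, was at 65.8 ± 6.58 CPM in D1 and 91.2 ± 19.9 CPM in D2 Control libraries (log2 -0.47, edgeR adjusted p = 0.0179). In Susceptible libraries Lrpprc, which stabilises mitochondrial mRNAs, was higher in D1 (log2 0.31, edgeR adjusted p = 0.0199), as was Elac2, which cleaves the 3′ ends of mitochondrial transfer RNAs (0.41, edgeR adjusted p = 0.0294).

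The nuclear partners of the 7 proteins did not share one direction. For complex I, 9 of 10 listed subunits were tested. In Control libraries Ndufb8 was lower in D1 (log2 -0.37, edgeR adjusted p = 0.0373), in Resilient libraries 0 were called, and in Susceptible libraries Ndufa9 was higher (0.27, edgeR adjusted p = 0.0464) and Ndufv2 lower (-0.25, edgeR adjusted p = 0.0254), a count near the background of 23.9% of all genes. For complex III, 0 of 6 were called in Control and Resilient libraries. In Susceptible libraries Cyc1 (0.48, edgeR adjusted p = 0.0173) and Uqcrc1 (0.73, edgeR adjusted p = 0.0344) were higher in D1, and Uqcrq (-0.58, edgeR adjusted p = 0.00635) and Uqcrb (-0.27, edgeR adjusted p = 0.0276) lower. These are 2 higher and 2 lower of 6, beside 23.9% of all genes called in either direction.

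Complex IV had the most called partners, all lower in D1: 5 of 9 in Control, 0 in Resilient and 4 in Susceptible libraries, with median log2 differences of -0.36, 0.04 and -0.23. Over all genes tested, 4.8%, 3.9% and 13.4% were called lower in D1. Cox5b was at 215 ± 15.6 CPM in D1 and 297 ± 25.2 CPM in D2 Control libraries (log2 -0.46, edgeR adjusted p = 0.000591), and at 219.6 ± 24.1 and 282 ± 28.1 CPM in Susceptible libraries (-0.36, edgeR adjusted p = 0.00367). Cox7c differed by log2 -0.60 in Control (edgeR adjusted p = 0.00542) and by -0.74 in Susceptible libraries (edgeR adjusted p = 0.000408). mt-Co1, the mitochondrial subunit of the same complex, was not called in these conditions, and its largest difference was in Resilient libraries, where none of the 9 partners was called. None of these nuclear lists had a called gene in any of the 6 stress comparisons by edgeR.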

How the data were processed

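The 30 libraries were SMART-Seq v4 libraries from 10 ng of ribosome-bound RNA, with RNA integrity above 8, per the labels' protocols. The authors deposited raw read counts per Ensembl gene, made with HISAT2 and HTSeq on GRCm38 (mm10), per the submitters' processing notes; versions, annotation and strand mode are not stated in the sources used here. The count lines of reads assigned to no gene (10.1% to 53.3% of reads per library) were left out. Symbols came from GENCODE M21, which named 55154 of 55335 identifiers. Tests were edgeR 4.0.16 quasi-likelihood fits over all 6 groups in R 4.3.3, with TMM scaling and filterByExpr (minimum count 10, total 15; 19368 genes kept, 35967 set aside), and Benjamini-Hochberg adjustment over all genes at 0.05. Alternatives used DESeq2 1.42.0 and limma 3.58.1. CPM are TMM-scaled, and likeness took log2 CPM at prior count 2. Only the edgeR fit was tried on simulated data, for the D1 against D2 Control comparison. Every simulated gene had the same spread, below the common level fitted to these data. The trial therefore does not cover genes as variable as mt-Nd4l.

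The members and all gene lists were chosen with earlier results of these data known. Named genes are the 7 members, the called members of a comparison or else its lowest and highest, the 5 most and 3 least alike genes, and up to 2 called genes per list and direction. mt-Co1 in D2 Susceptible against Resilient was added after its value was seen. Replicate numbers are in the labels, but libraries with the same number did not deviate together (median correlation -0.0036, range -0.17 to 0.078 over 75 pairs), so the fit has no block. Male and human data were not analysed here.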

Additional observations from a re-analysis of the deposited data

Results flagged for a closer look

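In 48 sets of 5 libraries, 3 held a library whose gap to its nearest neighbour was large against the range of the set (Dixon's test, critical value 0.71); chance gives about 1 in 20. The share of counts on the 7 genes was 0.210% in D1 Susceptible 1 against 0.533% in the nearest library of its group, and Gm42418 took 54.9% of the counts there. mt-Cytb was at 1892 CPM in D2 Control 2, and the next library of that group was at 1655 CPM. mt-Nd4l was at 41.2 CPM in D2 Susceptible 5, where the next library of the group was at 11.8 CPM.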

How the results depend on the processing

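Counts of called members in the D1 against D2 comparisons changed with the setting. In Control libraries, 1 in the fit reported, there were 3 with DESeq2, 2 with a fit of those groups alone, 6 with limma voom and quality weights, and 1 to 4 when each library was left out in turn. Over all genes, DESeq2 called 2048, the fit of those groups alone 2696 and voom 5491, against 1608 in the fit reported. In Resilient libraries, 5 in the fit reported, there were 4 with no filter on low counts (mt-Nd5 lost) and 6 with voom. In Susceptible libraries, 3 in the fit reported, there were 2 with no filter (mt-Nd2 lost) and 4 with voom. Over all genes, the fits with no filter and with voom called 1130 and 3416 in Resilient libraries, against 1288 in the fit reported. In Susceptible libraries they called 4098 and 3295, against 4621. Leaving out 1 library gave 3 to 5 in Resilient and 1 to 3 in Susceptible libraries, and 0 to 1 in D2 Susceptible against Resilient, where the 1 was mt-Co1. The mt-Co1 call came in a fit with 1607 genes called, against 10 in the fit reported. In the other stress comparisons and in the D1 minus D2 changes every setting tried gave 0. With the replicate block the counts were 1, 5 and 3 in Control, Resilient and Susceptible libraries and 0 in all other comparisons, so it changed no call; 2 of 30 libraries correlated best with a library of their own number.

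With voom, mt-Nd4l turned to 1.04 (D1) and 0.28 (D2) for Susceptible against Control and to 0.94 (D1) and 2.76 (D2) for Susceptible against Resilient. Its D1 against D2 value turned to -1.45 in Control, 1.13 in Resilient and -0.69 in Susceptible libraries, that of mt-Co1 in Susceptible libraries to -0.28, and mt-Nd4 in D2 Susceptible against Resilient to 0.12. Without D2 Susceptible 1 and 2, mt-Nd4l became 0.15 in D2 Susceptible against Control and -0.53 in D1 against D2 Susceptible, and mt-Co1 -0.22 in the latter. Leaving out D1 Susceptible 1 and D2 Resilient 5 as well gave 0.15, -0.63 and -0.26, and turned mt-Nd1 in D2 Resilient against Control to 0.047 and the D1 minus D2 change of mt-Co1 (Susceptible against Control) to -0.0018. The cause of these turns was not tested; none of these values was called.

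Of the member values recomputed with single libraries left out, which are not all of the values, 12 uncalled ones changed sign. For Susceptible against Control in D1, mt-Nd4l ran from -0.83 to 0.17 and mt-Co1 from -0.033 to 0.35; in D2, mt-Nd4l from -1.57 to 0.38 and mt-Nd4 from -0.084 to 0.13. For Susceptible against Resilient, mt-Nd4l in D1 ran from -0.56 to 0.059 and mt-Nd4 in D2 from -0.12 to 0.054. mt-Nd1 in D2 Resilient against Control ran from -0.13 to 0.039. In D1 against D2, mt-Nd4l ran from -0.55 to 0.99 in Control and from -0.22 to 1.19 in Susceptible libraries, and mt-Co1 from -0.0072 to 0.56 in Susceptible libraries. The D1 minus D2 changes ran from -0.41 to 0.0088 (mt-Nd4, Susceptible against Control) and from -0.24 to 0.029 (mt-Nd1, Resilient against Control).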
